A study of Homo sapiens with 8 samples.

Results

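RBM39 and its paralog RBM23 are RNA-binding proteins that aryl sulfonamide drugs such as indisulam mark for destruction, and both genes were followed in A549 cells under 4 treatments. They were chosen by name, with earlier results of these data known, and are 2 of the 60624 genes in the count tables. Both had enough reads to be among the 18661 genes tested. A549 is an established human lung adenocarcinoma line, and RNA with poly(A) tails was sequenced from cells left untreated or given indisulam, SPHINX31 or both drugs together (the combination), in 2 technical replicates per group and 8 libraries in all. The methods of the study give 0.5 µM indisulam, 5 µM SPHINX31 and 24 h for these A549 cells. The labels of all 8 libraries instead give 2 µM indisulam and 18 h, which the methods state for a separate experiment on another cell line, so the dose and the time are not certain. No library was treated with a sulfonamide that spares RBM39, all libraries are from 1 cell line, and because the replicates are technical, every p-value below measures only the spread between these libraries.

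RBM39 is a nuclear splicing factor that also serves as a coactivator of transcription factors such as AP-1 and the estrogen receptors. It carries RNA recognition motifs and, at its end, a U2AF homology motif (UHM), a fold that grips short peptide ligands in other splicing factors, and RBM23 shares the RNA recognition motifs. Indisulam fastens the second RNA recognition motif of these proteins to DCAF15, the substrate receptor of a CRL4 ubiquitin ligase, after which the proteasome degrades them, whereas SPHINX31 inhibits SRPK1, a kinase that phosphorylates SR-type splicing factors. The libraries hold RNA, so what is described below is the transcript of each gene and not the protein that the drug removes.

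RBM39 (ENSG00000131051) lies on the minus strand of chromosome 20 at chr20:35701347-35742312 of GRCh38. Its canonical transcript has 17 exons and a coding sequence of 1590 bases. Of its 47 annotated transcripts, 8 code for protein, 16 are marked as targets of nonsense-mediated decay, the pathway that removes messages with an early stop, 16 retain an intron and 7 have no defined coding sequence. RBM23 (ENSG00000100461) lies on the minus strand of chromosome 14 at chr14:22893204-22919182, with 14 exons and a coding sequence of 1317 bases in its canonical transcript. Of the 33 annotated RBM23 transcripts, 19 code for protein, 0 are marked for nonsense-mediated decay, 8 retain an intron and 6 have no defined coding sequence. The counts were summed over a whole gene, so a change in the share of any of these transcripts is not visible in them.

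Because the genes are paralogs, their coding sequences were aligned to see whether a read of one could be assigned to the other. Over 1250 aligned bases 877 were identical (70.2%), and no stretch of 150 bases, the read length, was shared. The rest of the canonical transcripts, which are 5060 bases long for RBM39 and 10007 for RBM23, was not compared. The longest run shared by the coding sequences was 12 bases, in exon 7 of both canonical transcripts. It is printed here in capitals within 72 bases of the gene's own strand, at chr20:35725065-35725136 in RBM39 and at chr14:22905363-22905434 in RBM23 (GRCh38, both minus strand).
RBM39: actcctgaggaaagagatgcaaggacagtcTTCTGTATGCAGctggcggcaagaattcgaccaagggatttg
RBM23: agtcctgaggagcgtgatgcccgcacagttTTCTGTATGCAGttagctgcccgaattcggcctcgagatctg
The capitals lie at bases 466 to 477 of the RBM39 coding sequence and at bases 505 to 516 of that of RBM23. Similarity was uneven along the gene. Identity per window of 90 bases was highest, 81.1%, around base 705 of the RBM39 coding sequence and lowest, 14.4%, around base 1395, toward its end, as the plot of identity along the coding sequence shows. Bases with no aligned partner count here as not identical, unlike in the 70.2% above. In the lowest window 16 of the 90 bases were aligned and 13 of these were identical.

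A nearer copy of RBM39 exists in RBM39P1, a processed pseudogene at chrX:44029332-44030921, which was 95.4% identical to the RBM39 transcript over 1589 aligned bases with a longest shared run of 133 bases. No stretch of 150 bases was the same in both, although read pairs with sequencing errors could still be split between them. RBM39P1 received 17 to 49 counts per library, against 9001 to 22409 for RBM39. Its level was 0.312 CPM in untreated cells and 0.784 CPM with indisulam (log2 fold change 1.32, edgeR quasi-likelihood test, Benjamini-Hochberg adjusted p = 0.00136), a value to be treated as uncertain because reads of RBM39 may be among them.

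RBM39 was clearly expressed in untreated A549 cells and rose with indisulam alone. Its level is given in CPM, the count scaled to the TMM-adjusted size of the library. RBM39 stood at 154 and 157 CPM in the untreated libraries, 361 and 360 with indisulam, 166 and 184 with SPHINX31, and 373 and 391 with the combination. Both libraries with indisulam and both with the combination lay above all 4 libraries without indisulam. How common that split is among all tested genes was not counted. The RBM39 means were 155 ± 2.04, 361 ± 0.648, 175 ± 12.8 and 382 ± 13.3 CPM in that order (SD, n = 2 each). The ascending order of the RBM39 level was thus untreated, SPHINX31, indisulam and combination, in which untreated and SPHINX31 did not differ past the threshold, nor did indisulam and the combination.

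RBM23 was expressed below RBM39 and rose by a smaller amount with indisulam. It stood at 101 and 102 CPM in the untreated libraries, 138 and 135 with indisulam, 93.6 and 92.7 with SPHINX31, and 129 and 125 with the combination. Again all 4 libraries with indisulam lay above all 4 without it, a split whose share among all tested genes was not counted. The RBM23 means were 102 ± 0.268, 137 ± 2.29, 93.1 ± 0.644 and 127 ± 2.27 CPM in the same order (SD, n = 2 each). For RBM23 the ascending order was SPHINX31, untreated, combination and indisulam, so the means with SPHINX31 lay above those without it for RBM39 and below them for RBM23. None of these differences between libraries with and without SPHINX31 passed the threshold for either gene.

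**Figure D1:**
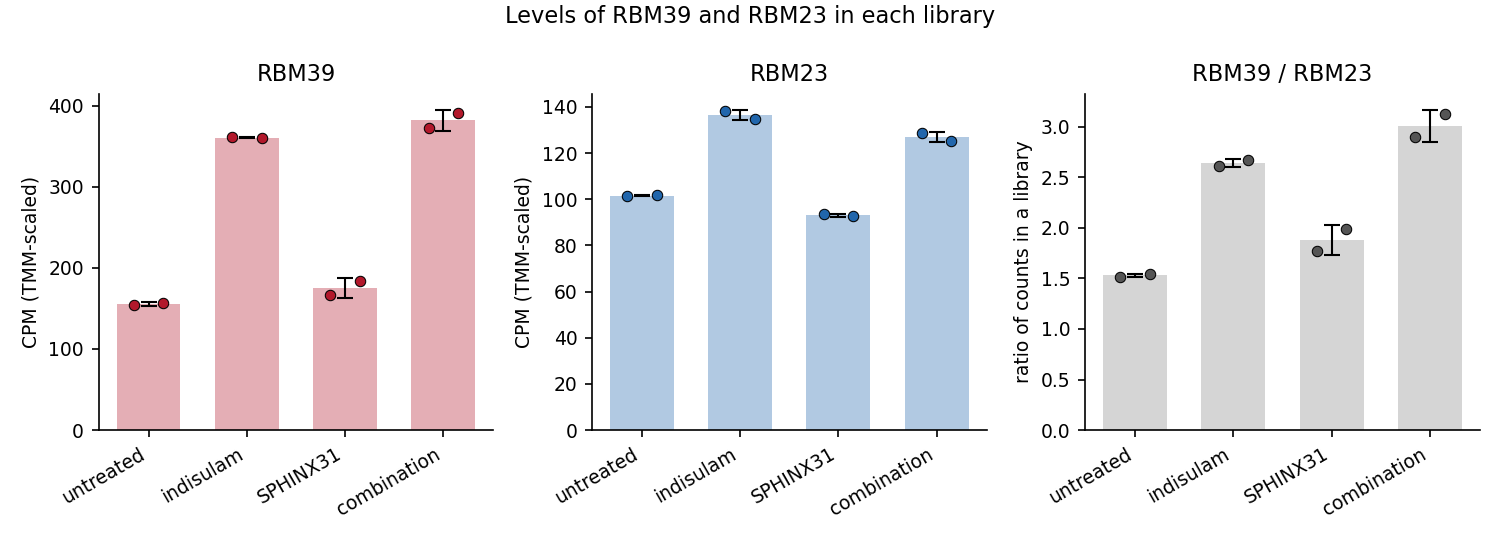
Level of RBM39 (left) and RBM23 (middle) in CPM and ratio of the RBM39 count to the RBM23 count within a library (right) on linear y axes from 0, for the 4 groups on the x axis. Bars are means, points are the 2 libraries of a group and error bars are 1 SD; the libraries with indisulam lie above those without it in every panel, at 360 to 391 against 154 to 184 CPM for RBM39 and at 125 to 138 against 92.7 to 102 CPM for RBM23.

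The depth of the libraries was 51727369 to 63186989 counts on genes, with 83.0% to 86.0% of the reads assigned to a gene. At 9001 to 22409 counts for RBM39 and 5072 to 8037 for RBM23, counting error alone was 0.668% to 1.05% and 1.12% to 1.40% of a value. Differences of the size seen between the groups with and without indisulam were therefore not limited by depth. All 8 epithelial genes checked in these cells (EPCAM, CDH1, KRT7, KRT8, KRT18, ALDH1A1, AKR1C1 and AKR1B10) were present, at a summed 18922 to 22891 CPM. Of 6 genes of leukocytes, endothelium and fibroblasts, summed at 5.65 to 6.85 CPM, CD3E was at 0 in all libraries, PTPRC, CDH5 and DCN had at most 8 counts, and PECAM1 and COL1A1 made up most of the sum. In RNA from a whole culture, fewer cells that express a gene and less RNA per cell cannot be told apart.

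With indisulam alone against untreated cells, the comparison that asks what the degrader does to the transcripts of its own targets, both members rose. Across all tested genes 43.7% passed the threshold in this comparison, 20.1% of all as higher and 23.5% as lower, so a call alone was common. RBM39 rose by a log2 fold change of 1.22 (SE 0.0553, 95% interval 1.10 to 1.33), which is 2.32-fold (edgeR quasi-likelihood test, Benjamini-Hochberg adjusted p = 5.41e-09). RBM23 rose by 0.43 (SE 0.0471, interval 0.326 to 0.529), or 1.35-fold (edgeR, same adjustment, adjusted p = 9.24e-06). The size of the RBM39 change set it apart more than the call did. Its log2 fold change was above that of 97.8% of tested genes, with 409 genes higher, and 0 of the 593 genes with at least the same average log2 CPM had a higher one. That average is over all 8 libraries, those with indisulam included. The rise of RBM39 thus raised the level these genes had to reach, so this standing is partly set by the rise itself. The change of RBM23 was above that of 87.0% of genes, and 50 of the 1774 genes read at least as deeply by the same average exceeded it.

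**Figure D2:**
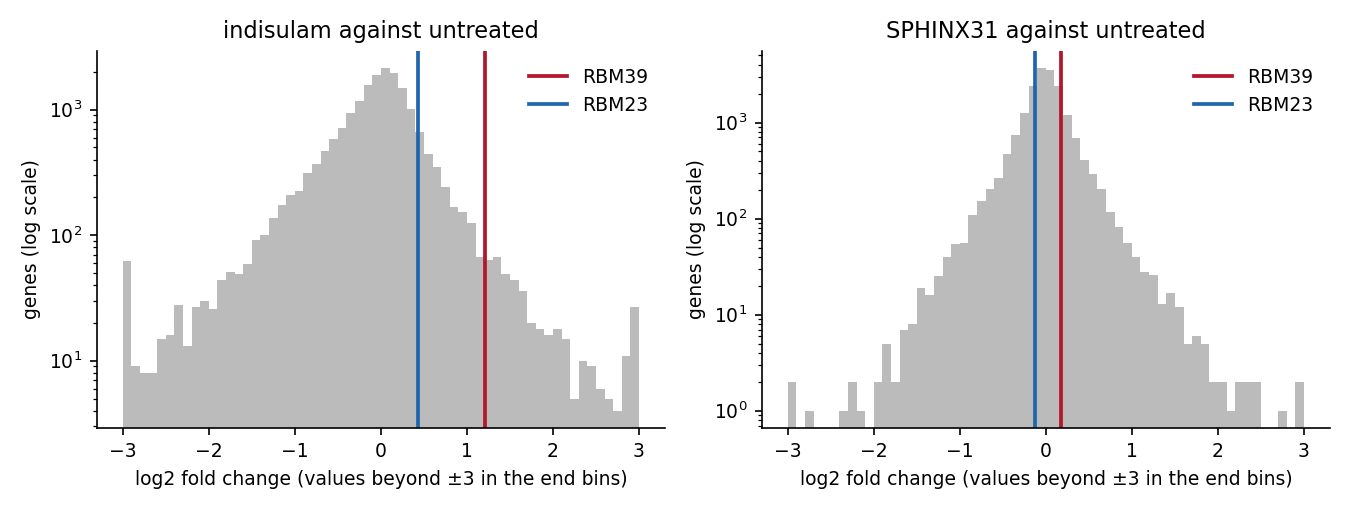
Histogram of log2 fold changes of the 18661 tested genes (x axis, values beyond 3 in either direction gathered in the end bins; y axis, number of genes on a log scale) for indisulam (left) and SPHINX31 (right) against untreated. Vertical lines mark RBM39, at 1.22 and 0.17, and RBM23, at 0.43 and -0.12. With indisulam RBM39 lies in the right tail above 97.8% of genes. With SPHINX31 it lies above 80.0% of genes, and RBM23 lies above 27.5%.

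Other measures of the libraries moved with indisulam too. Reads outside any annotated feature made up 4.49% to 5.87% of reads in the 4 libraries with indisulam and 3.67% to 4.34% in the 4 without. The summed epithelial markers were 20097 to 20657 CPM with indisulam and 18922 to 19303 with the combination, against 22873 to 22891 untreated and 21259 to 21674 with SPHINX31. Of these 8 markers 1 passed the threshold as higher with indisulam and 3 as lower, beside 20.1% and 23.5% of all tested genes, and with SPHINX31 alone 0 passed as higher and 3 as lower, beside 4.94% and 3.67%. The higher one, EPCAM (0.18, edgeR, Benjamini-Hochberg adjusted p = 0.0431), lost its call without any single untreated or indisulam library (adjusted p 0.086 to 0.150), with a looser filter and with DESeq2. The part of either measure in the change of RBM39 or RBM23 was not tested.

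SPHINX31 alone left both members without a call. RBM39 had a log2 fold change of 0.17 (SE 0.0549, interval 0.0548 to 0.292, edgeR, Benjamini-Hochberg adjusted p = 0.069), and RBM23 one of -0.12 (SE 0.0474, interval -0.227 to -0.0223, adjusted p = 0.125). In this comparison 8.61% of tested genes passed, 4.94% as higher and 3.67% as lower (921 and 685 genes, or 1341 and 515 with libraries scaled by their totals alone). The RBM39 value was above that of 80.0% of tested genes. Of the 593 genes with at least its average level over all 8 libraries, 36 had a higher one. RBM23 was above 27.5%, and 1352 of the 1774 genes chosen in the same way for RBM23 exceeded it. The intervals, which are not adjusted for the number of genes, place RBM39 at most 0.292 above and RBM23 at most 0.227 below untreated on the log2 scale. The RBM39 value depended on the scaling and on single libraries: with libraries scaled by their totals alone it was 0.21 with adjusted p = 0.0264, and without the first SPHINX31 library, which had the lower RBM39 level of the pair, it was 0.24 with adjusted p = 0.0299 (both edgeR), and with each untreated or SPHINX31 library left out in turn it ranged from 0.09 to 0.24.

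When both drugs were given, both members rose again. Against untreated cells RBM39 was 1.30 higher on the log2 scale (SE 0.0553, interval 1.18 to 1.42, 2.46-fold, edgeR, Benjamini-Hochberg adjusted p = 1.44e-09) and RBM23 0.32 higher (SE 0.0471, interval 0.220 to 0.423, 1.25-fold, adjusted p = 8.18e-05). In that comparison 50% of tested genes passed, 23.8% as higher and 26.3% as lower (4434 and 4903 genes), a balance that turned with scaling by library totals alone (5331 and 4304). RBM39 was above 97.2% of all genes here, while RBM23 was above 77.8%. Of the 593 genes with at least the average level of RBM39 over all 8 libraries, 1 exceeded it. The comparisons of indisulam, SPHINX31 and the combination with untreated cells share the untreated libraries, so their values for RBM39 and RBM23 are not independent of each other.

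A measure of the indisulam effect that does not compare with the untreated libraries is the combination against SPHINX31. Its SE, interval and adjusted p still come from the fit of all 8 libraries, the untreated ones included. RBM39 differed by 1.13 (SE 0.0551, interval 1.01 to 1.24, 2.18-fold, edgeR, Benjamini-Hochberg adjusted p = 4.41e-09) and RBM23 by 0.45 (SE 0.0473, interval 0.344 to 0.548, 1.36-fold, adjusted p = 4.92e-06), both higher with the combination. Of all tested genes 49.9% passed in this comparison, 23.4% as higher and 26.5% as lower. For RBM23 the value was 0.45 here and 0.43 without SPHINX31, and for RBM39 it was 1.13 here and 1.22 without SPHINX31.

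Whether the indisulam effect on a member depended on SPHINX31 was tested by an interaction term. Its log2 estimate was -0.09 for RBM39 (SE 0.0771, interval -0.257 to 0.0758, edgeR, Benjamini-Hochberg adjusted p = 0.775) and 0.02 for RBM23 (SE 0.0667, interval -0.125 to 0.162, adjusted p = 0.959). Of all tested genes 0% passed by edgeR, with 1584 genes at an unadjusted p under 0.05, and 33 passed by DESeq2. Nor did adding SPHINX31 to indisulam change a member past the threshold: RBM39 differed by 0.08 (SE 0.0542, interval -0.034 to 0.199, adjusted p = 0.411) and RBM23 by -0.11 (SE 0.0469, interval -0.207 to -0.00466, adjusted p = 0.201), both by edgeR, where 7.5% of genes passed, 3.17% as higher and 4.32% as lower. That balance, 592 genes higher and 807 lower, also turned with scaling by library totals alone, to 942 and 498. Without single libraries the RBM39 interaction moved between -0.154 and -0.00566, its extremes without the first and the second SPHINX31 library, and the RBM39 difference between the combination and indisulam between 0.0468 and 0.124, its extremes without the second and the first combination library, with no adjusted p past the threshold (edgeR). The plot of the 6 comparisons sets these values side by side.

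**Figure D3:**
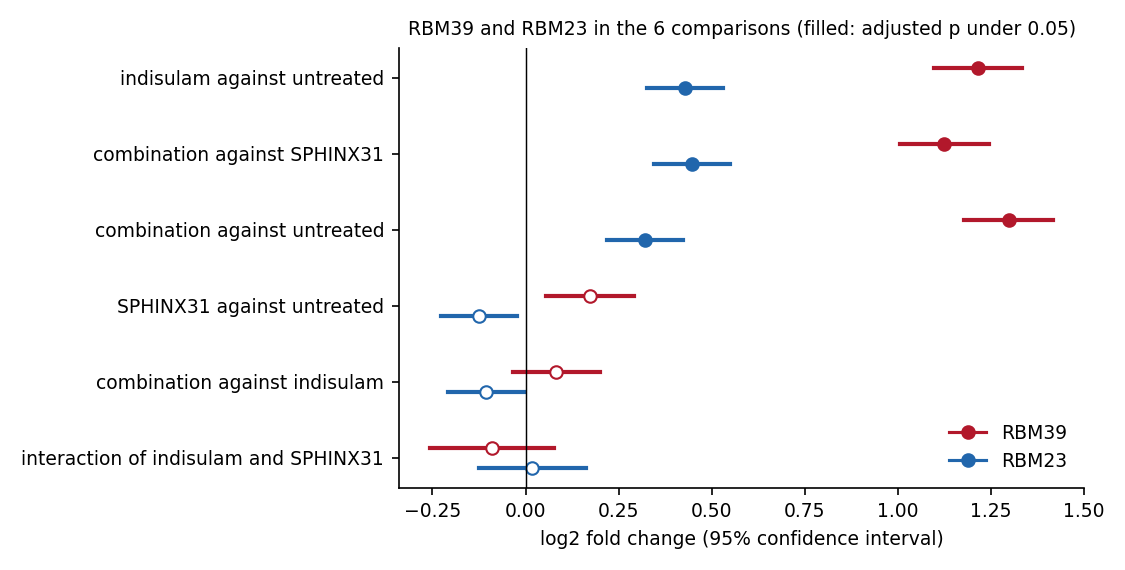
Log2 fold change (x axis) of RBM39 (red) and RBM23 (blue) in the 6 comparisons on the y axis, with unadjusted 95% confidence intervals as lines; filled points have an adjusted p under 0.05 by edgeR. The 3 comparisons that add indisulam are filled for both genes, at 1.13 to 1.30 for RBM39 and 0.32 to 0.45 for RBM23, and the other 3 are open.

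The unequal rise of the paralogs shows directly in the ratio of their counts within a library, which needs no scaling between libraries. For each RBM23 count there were 1.52 and 1.54 RBM39 counts in the untreated libraries, 2.61 and 2.67 with indisulam, 1.77 and 1.99 with SPHINX31, and 2.90 and 3.12 with the combination. All 4 libraries with indisulam lay above all 4 without. How common such a split is among ratios of other genes was not counted. The mean log2 ratio was 1.496 ± 0.118 with indisulam and 0.76 ± 0.183 without (SD, n = 4 each), a difference of 0.73 or 1.66-fold (two-sided exact permutation test over libraries, p = 0.0286, the smallest that the 70 regroupings can give). These regroupings mix libraries with and without SPHINX31, and each SD spans both kinds, so the test takes no account of SPHINX31. The difference was 0.79 among the libraries without SPHINX31 and 0.68 among those with it, where 2 libraries against 2 cannot give a p below 0.333 (exact permutation test). Both SPHINX31 libraries also lay above both untreated libraries in this ratio, and both combination libraries above both indisulam libraries, differences for which no test was run.

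Levels of different genes can be compared only per length. In FPKM (CPM divided by the length in kilobases, here over the merged exons of 11974 bases for RBM39 and 14022 for RBM23), RBM39 averaged 12.97 untreated, 30.1 with indisulam, 14.6 with SPHINX31 and 31.9 with the combination. RBM23 averaged 7.24, 9.74, 6.64 and 9.05 FPKM in the same order. RBM39 was thus the more abundant transcript in every library, with mean ratios of 1.79, 3.09, 2.202 and 3.53 in FPKM. Among the 18596 tested genes with a symbol, RBM39 ranked 3111 to 3183 by FPKM in untreated libraries and 1226 to 1260 with indisulam, and RBM23 ranked 5153 to 5170 and 3975 to 4110. The ratio rests on the length chosen: over the longest annotated transcript of each gene (5914 and 10007 bases) it was 2.59, 4.47, 3.18 and 5.10.

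Of the 5 genes beside or overlapping the members, 0 passed the threshold as higher with indisulam and 2 as lower, where 20.1% and 23.5% of all tested genes did. ROMO1, a mitochondrial membrane protein gene that ends 362 bases from RBM39, had a log2 fold change with indisulam of -0.34 (edgeR, Benjamini-Hochberg adjusted p = 0.0168), which missed the threshold without the first untreated library (-0.29, adjusted p = 0.102) and without the first indisulam library (-0.13, adjusted p = 0.228), and when only the untreated and indisulam libraries were fitted (-0.33, adjusted p = 0.0512). PHF20, a chromatin reader gene 29661 bases away on the other side, fell by 0.60 (edgeR, adjusted p = 1.74e-05). Beside RBM23, PRMT5, an arginine methyltransferase gene 1342 bases away, was at 0.00 (adjusted p = 0.965) and REM2, a small GTPase gene 5525 bases away, at -0.18 (adjusted p = 0.655, both edgeR). PRMT5-AS1, an antisense RNA, overlaps RBM23 by 236 bases and shares 184 of its exon bases, or 1.31%. With 6 to 18 counts per library against at least 5072 for RBM23 it holds few reads, and since the strand setting of the counting is not given in the sources used here, reads in the overlap cannot be assigned to one of them with certainty.

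The next genes are related to RBM39 by domain, by the ligase or by a role in transcription, in lists chosen with earlier results of these data known. Whether their products work with RBM39 in these cells was not tested. Of 10 UHM proteins and their ligands, 6 rose with indisulam and 0 fell, beside 20.1% and 23.5% of all tested genes, with a median log2 fold change of 0.24 against -0.0041 for all tested genes. The genes that rose were SF1, the branch point binding protein (262 ± 0.506 to 424 ± 4.55 CPM, 0.70, adjusted p = 7.02e-08), U2AF1L4 (0.73, adjusted p = 8.28e-04), U2AF2, which reads the polypyrimidine tract (260 ± 6.66 to 343 ± 9.96 CPM, 0.40, adjusted p = 1.42e-05), ZRSR2 of the minor spliceosome (0.32, adjusted p = 0.00542), SF3B1 of the U2 particle (0.31, adjusted p = 4.93e-04) and UHMK1, a kinase with a UHM (0.17, adjusted p = 0.0496), all by edgeR with Benjamini-Hochberg adjustment. UHMK1 missed the threshold without either untreated library or without the first indisulam library, at 0.13 to 0.22, and ZRSR2 without the first indisulam library, at 0.28. RBM39 at 1.22 exceeded each of these, and RBM23 at 0.43 lay between U2AF2 and SF1. PUF60 (0.10, or 0.19 and past the threshold without the first indisulam library), RBM17 (-0.09), HTATSF1 (0.01) and U2AF1 (0.03) did not pass, of which U2AF1, with 30 to 68 counts per library, is uncertain because a near-identical copy of the gene can share its reads. With SPHINX31 0 of the 10 passed, beside 8.61% of all genes, and the median was 0.05. With the combination 5 rose and 0 fell, beside 23.8% and 26.3% of all genes, with a median of 0.27, where the medians over all tested genes were -0.0064 with SPHINX31 and 0.00097 with the combination.

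In the ligase that marks RBM39 and RBM23 for the proteasome, 2 of 7 transcripts passed the threshold with indisulam, both as higher, a share near the 20.1% of all tested genes that did, and the receptor was not among them. DCAF15, the receptor that indisulam binds, was at 20.6 ± 0.911 CPM untreated and 20.9 ± 1.40 with indisulam (log2 fold change 0.02, interval -0.136 to 0.178, edgeR, Benjamini-Hochberg adjusted p = 0.839). Of the 7 genes of the ligase and its regulators, RBX1, the RING subunit (0.29, adjusted p = 0.00216), and CUL4B, a cullin scaffold (0.24, adjusted p = 0.00279, both edgeR), rose with indisulam and 0 fell. DDA1, DDB1, CUL4A and CAND1 did not pass, with values from -0.06 to 0.12, although CAND1 did when only the untreated and indisulam libraries were fitted (0.13, edgeR, adjusted p = 0.0212). With SPHINX31, RBX1 fell by 0.33 (edgeR, adjusted p = 0.0062), as 1 of 7, beside 3.67% of all tested genes that passed as lower. The median over the list was 0.07 with indisulam, -0.08 with SPHINX31 and 0.01 with the combination, where RBX1 and CUL4B again rose, by 0.17 and 0.26. These 2 of 7 stand beside 23.8% of all tested genes that passed as higher with the combination.

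Of 4 partners of RBM39 in transcription, the coactivator gene NCOA6 rose with indisulam (43.96 ± 2.72 to 57.6 ± 2.88 CPM, 0.39, edgeR, Benjamini-Hochberg adjusted p = 1.97e-04), while JUN, a subunit of AP-1, had -0.11 with indisulam (adjusted p = 0.385) and rose by 0.55 with SPHINX31 (edgeR, adjusted p = 0.00253). The estrogen receptor genes ESR1 and ESR2 had at most 3 counts in any library and were not tested, which leaves a median of 0.14 with indisulam over the 2 tested partners. Of these 2, 1 passed as higher with indisulam and 1 with SPHINX31, beside 20.1% and 4.94% of all tested genes. So few genes cannot describe the partners as a set. The plot of the neighbouring gene lists shows the first of these groups and the ligase.

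**Figure D4:**
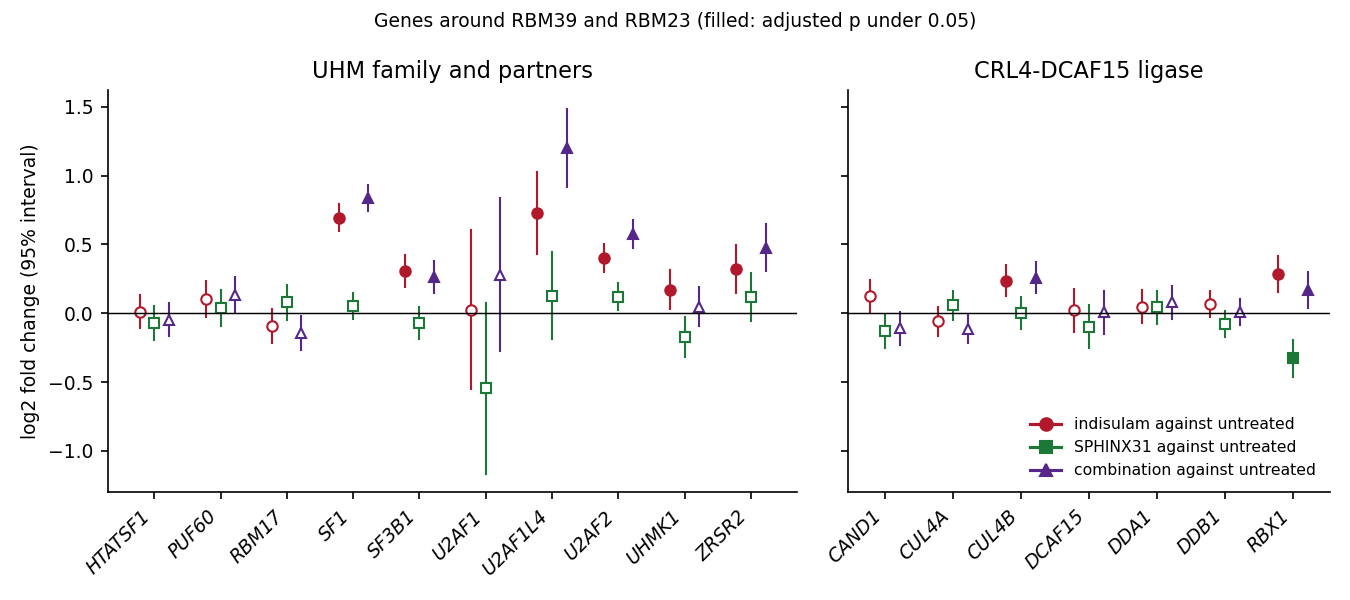
Log2 fold change against untreated (y axis, unadjusted 95% confidence interval as a line) of 10 UHM family members and partners (left) and 7 ligase genes (right) for indisulam (red circles), SPHINX31 (green squares) and the combination (purple triangles); filled symbols have an adjusted p under 0.05 by edgeR. SF1 and U2AF1L4 reach 0.70 and 0.73 with indisulam, and DCAF15 is at 0.02.

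The genes whose levels moved most like those of each member over the 8 libraries were found by the root mean square difference of log2 CPM, centred on the untreated libraries, among 9936 genes with a mean log2 CPM of at least 3. Nearest to RBM39 were CLK4, a kinase of SR proteins (difference 0.119), PRPF39, a U1-associated splicing factor (0.127), the lipid receptor gene S1PR3 (0.132), the zinc finger gene ZNF557 (0.156) and ZNG1B (0.162), the last a member of a family of near-identical copies. With indisulam these 5 genes had log2 fold changes of 0.99 to 1.43, around the 1.22 of RBM39. Nearest to RBM23 were POLR2K, a subunit of RNA polymerases (0.0328), KALRN (0.0340), P3H2 (0.0386), RPL26L1 (0.0409), whose reads may be shared with RPL26, and ARRDC1-AS1 (0.0423), with 0.37 to 0.43 under indisulam and -0.15 to -0.10 under SPHINX31. The paralogs were not among each other's nearest genes: they differed by 0.646, which placed RBM23 at rank 850 for RBM39 and RBM39 at rank 8968 for RBM23. When genes were ranked by Pearson correlation instead, 0 of the 5 genes remained for either member, so the list depends on the measure.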

How the data were processed

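Per the deposited tables, the authors gave unnormalized read counts for each Ensembl gene, and reads outside annotated features were listed by chromosome. Per the submitters' processing notes, HISAT2 2.2.1, HTSeq and GRCh38 were used, and the paper names SeqPurge for trimming. The strand setting and annotation of the counting are not given in the sources used here. Reads without a gene, 14.0% to 17.0% of a library, were kept out of library sizes and tests.

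Gene names and positions came from GENCODE 44 (60370 of 60624 identifiers matched). Counts of 51727369 to 63186989 per library entered edgeR 4.0.16 (under R 4.3.3): filterByExpr, TMM factors, and the quasi-likelihood test with all 8 libraries in 1 fit (4 residual degrees of freedom, biological coefficient of variation 0.0491). P-values were adjusted by Benjamini-Hochberg over 18661 genes with a threshold of 0.05. The standard error was the log2 fold change divided by the square root of F. The paper states no test on gene counts. Ratios were tested by exact permutation (scipy 1.17.1), and coding sequences were aligned with Biopython 1.88. The fit was tested on simulated data.

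Both members and all lists were chosen with earlier results of these data known. The genes named were RBM39 and RBM23, the listed genes, overlapping and nearest protein-coding genes, pseudogenes of either, and the 5 genes nearest in profile. Alternatives were RLE factors, library totals, DESeq2 1.42.0, looser and stricter filters (at least 1 count in all, or 10 in every library), only the groups compared, a replicate block, and leaving out each library. Same-numbered libraries correlated at -0.582 to 0.457 in their deviations (9490 genes), so the numbers were not taken to pair them. The values were -0.582 for untreated and indisulam, -0.501 for indisulam and SPHINX31 and 0.457 for untreated and SPHINX31. Pairs with the combination had 0.0189 to 0.178. What libraries share beyond their treatment was not tested, and the main fit has no term for it. Replicates differed by more than sampling noise (chi-square per degree of freedom 6.02 to 9.69), so none was counted as a copy.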

Additional observations from a re-analysis of the deposited data

Results flagged for a closer look

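Reads that fell outside annotated features, which enter no comparison of genes, were more frequent with indisulam on the chromosomes of both members. On chromosome 20, which holds RBM39, they amounted to 2023 with indisulam and 2227 with the combination (group means on the CPM scale, relative to all gene counts of a library), against 1585 and 1769 in the untreated libraries. On chromosome 14, which holds RBM23, they numbered 1888 and 2046, against 1475 and 1634 in the untreated libraries. The group means hide a narrow gap. The second indisulam library was at 1822 on chromosome 20 and 1691 on chromosome 14, against 1769 and 1634 in the second untreated library. The 4 libraries with indisulam averaged 2125 ± 275 on chromosome 20 and 1967 ± 261 on chromosome 14, and the 4 without 1596 ± 148 and 1477 ± 117 (SD, two-sided exact permutation test, p = 0.0286 for each, the smallest that 4 against 4 can give). These values were flagged because both libraries of a treated group exceeded both untreated ones. A low p on the same values was therefore largely set in advance and adds no separate support. The regroupings also mix libraries with and without SPHINX31. Over all chromosomes reads outside annotated features made up 4.49% to 5.87% of reads with indisulam and 3.67% to 4.34% without, so the rise was not limited to chromosomes 20 and 14. In each case all 4 libraries with indisulam lay above all 4 without. The counts cover a whole chromosome, and how many of these reads lie near RBM39 or RBM23 was not tested.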

How the results depend on the processing

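RBM39 and RBM23 passed the threshold in all 3 comparisons that add indisulam under every alternative run, from 1.06 to 1.35 for RBM39 and from 0.31 to 0.47 for RBM23 on the log2 scale. RBM39 with SPHINX31 passed with library totals (0.21), with the looser filter (0.18) and without the first SPHINX31 library (0.24), and was 0.0946 to 0.243 with single libraries left out. The interaction of RBM39 ranged from -0.154 to -0.00566 and that of RBM23 from -0.0051 to 0.0372, the latter negative without the second indisulam library.

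The log2 difference in count ratio was 0.68 to 0.81 with single libraries left out (exact permutation p = 0.0571, the smallest possible), 0.79 without and 0.68 with SPHINX31. Ratios per length over the longest transcripts were 2.59, 4.47, 3.18 and 5.10.

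With single libraries left out, 482 to 1532 genes passed for SPHINX31 against untreated, 440 to 1050 for the combination against indisulam and 0 to 1 for the interaction, for which 94 passed with the looser filter and 33 with DESeq2. With the replicate number as a block no call of either member changed, and 1330 genes passed for SPHINX31 and 1169 for the combination against indisulam. With the numbers of the indisulam group exchanged, a choice made after seeing the data, 8952 passed for indisulam, against 7851 with the block as labelled and 8148 without.

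Values near 0 with indisulam changed sign: PRMT5-AS1 was 0.00358 with RLE factors and 9.27e-05 with totals, and ALDH1A1 0.00267 with RLE factors and 0.00246 with DESeq2. With single libraries left out the ranges were -0.599 to 0.412 for PRMT5-AS1, -0.0296 to 0.0364 for PRMT5, -0.221 to 0.315 for U2AF1, -1.52e-04 to 0.0350 for HTATSF1, -0.0395 to 0.0896 for DCAF15, -0.0186 to 8.73e-04 for ALDH1A1 and -0.136 to 0.109 for COL1A1. The cause of these shifts was not tested.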
